A study of Danio rerio with 4 samples.

Results

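Nucleolar ribosome biogenesis factors were compared between zebrafish retinal progenitors that arise after injury and the Muller glia of the uninjured retina. The rule for members uses gene names and no measured value, but it was proposed with earlier results of these data known. A probe was taken if its gene name, or the current symbol of its RefSeq transcript, begins with nop, nol, utp, rrp, npm, polr1, gar1, imp3 or imp4, or equals fbl, ncl, dkc1, pes, bop1, nhp2, rcl1, wdr12, wdr43 or gnl3. This gave 39 probes for 28 genes, out of 21495 probes and 8754 named genes on the array. No probe matched dkc1 or the start rrp. The progenitors were GFP-positive cells of 1016 tuba1a:gfp fish, in which a tuba1a promoter drives GFP, taken 4 days after injury with a 30-gauge needle (n = 2 arrays, from fish of 7 and 8 months). The Muller glia were GFP-positive cells of gfap:gfp fish, in which the gfap promoter drives GFP, taken from uninjured retinas (n = 2 arrays, both from fish of 7 months). All fish were adults carrying a GFP transgene, and both groups were sorted on GFP, but the transgenic line and the injury change together and cannot be told apart. The labels call the samples of a group duplicates and say nothing of separate pools of fish, so p-values reflect only the scatter of these arrays, possibly technical.

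Ribosomes are assembled in the nucleolus. RNA polymerase I transcribes the ribosomal RNA precursor, small nucleolar ribonucleoproteins (snoRNPs) modify it, a large complex called the small subunit processome folds and cleaves it, and further factors mature the large subunit. Output of this pathway is known to be high in growing and dividing cells, and adult Muller glia of the zebrafish retina re-enter the cell cycle after injury.

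Each RNA sample was hybridised to 1 single-colour Agilent array. The signal at the 75th percentile was 4816 and 4899 on the progenitor arrays and 4289 and 4455 on the glia arrays. Log2 signals correlated across probes at r = 0.998 between the progenitor arrays and r = 0.999 between the glia arrays, against 0.969 to 0.970 between the groups. Noise between duplicate spots gives a difference to be expected between averages of 2 spots. Replicate arrays differed by 1.44 times that amount in progenitors and 1.24 times in glia. Of 9 tested Muller glia markers, progenitors had 6 at higher and 1 at lower levels (limma, adjusted p below 0.05), against 27.5% and 40.4% of all genes. All 12 rod and cone markers tested were lower in progenitors, against 40.4% of all genes. They were well above background on every array of both groups, so the sorted cells were not shown to be free of photoreceptor RNA. In such bulk samples fewer cells of a type and less RNA per cell cannot be told apart.

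Levels below are log2 signals minus the 75th percentile of the same array, so 0 is the 75th percentile of that array, and differences are progenitors minus glia on this log2 scale with the standard error (SE) from limma. Testing needed a signal well above background on both arrays of either group. Adjusted p-values (limma, Benjamini-Hochberg over 16596 probes) under 0.05 count as passing, and the brightest probe stands for its gene. Because probes bind their targets unequally, levels are compared between arrays and not between genes.

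Most nucleolar factors were slightly higher in progenitors with arrays scaled on the 75th percentile, a count that other scalings changed. Of 26 genes tested, 15 were higher (57.7%), against 27.5% of all 7082 genes, and 1 was lower (3.85%), against 40.4% of all genes (limma, adjusted p below 0.05). The median difference was 0.27, against -0.11 over all genes, and 21 of the 26 genes stood above 0. The differences were small: nop16 and npm1a alone reached 2-fold, 7.69% of the members, against 7.7% of all genes. Progenitor and glia arrays did not overlap for 21 of 26 genes (80.8%), against 88% of all genes, so the members were no more often free of overlap than other genes. All 35 tested probes were well above background on every array. The other 4 probes were not well above background on any array, and they were the only probes of bop1 and imp3 and a further probe each of nop16 and utp25.

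**Figure D1:**
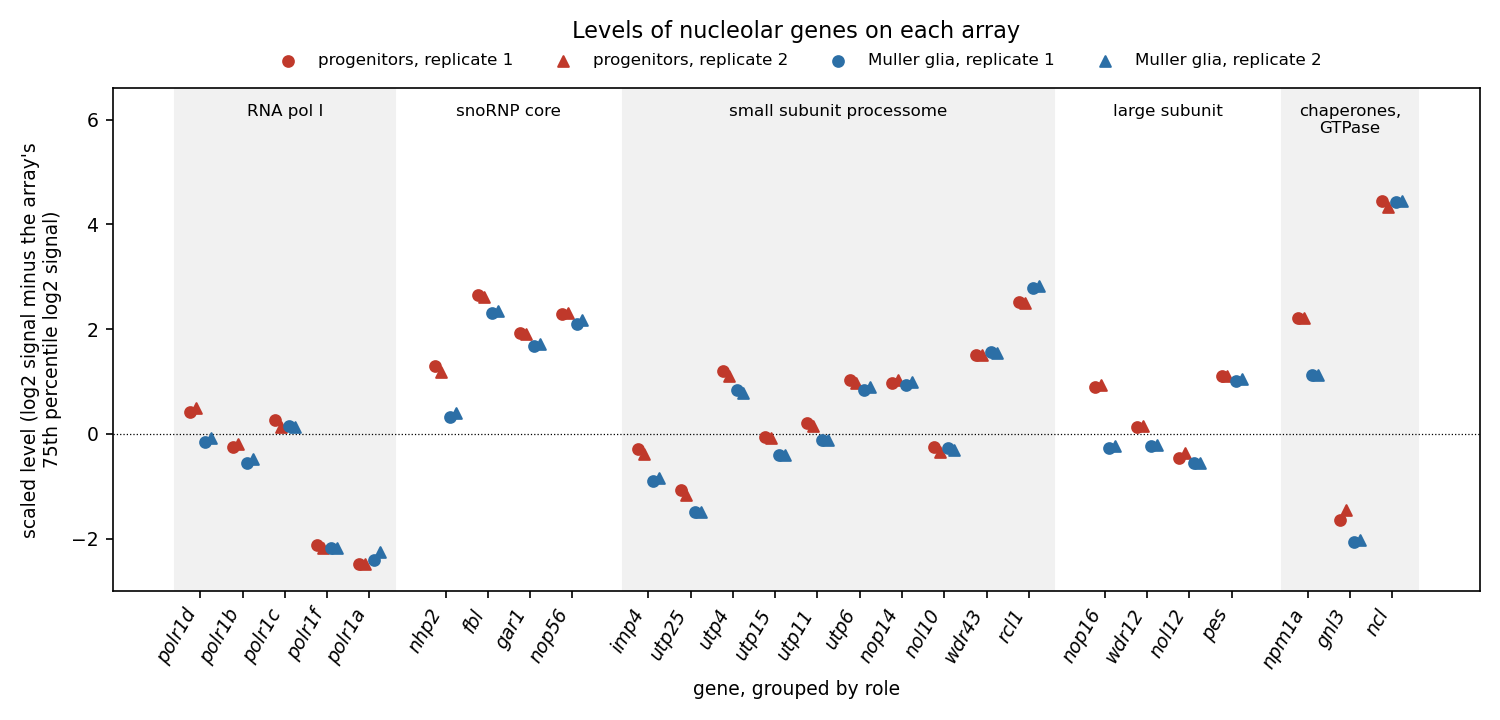
Scaled level of the 26 tested genes (vertical axis, log2 signal minus the 75th percentile of the array) on each of the 4 arrays, grouped by role, with progenitors in red left of Muller glia in blue. Each marker is 1 array. The gap between the groups is widest for nop16 (0.91 and 0.94 in progenitors, -0.28 and -0.22 in glia) and npm1a (2.21 and 2.22 in progenitors, 1.12 and 1.13 in glia), whereas the groups overlap for ncl.

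The RNA polymerase I subunits meant here are those named polr1. Of these 5, 2 were higher and 3 did not pass, against 27.5% of all genes higher and 40.4% lower. With median scaling polr1d alone was higher and polr1a and polr1f were lower, against 18.3% and 60.5% of all genes. The subunit gene polr1d, which RNA polymerases I and III share, had levels of 0.43 and 0.50 in progenitors, against -0.16 and -0.08 in glia. The progenitor arrays both lay above the glia arrays, a 1.5-fold difference (0.59 ± 0.06, limma, adjusted p = 0.00224, danRer2 chromosome 14, 11190797 to 11190856, minus strand). The gene of the second-largest subunit, polr1b, stood at -0.24 and -0.19 in progenitors, against -0.55 and -0.48 in glia (0.30 ± 0.05, limma, adjusted p = 0.00942, chromosome 24, 6754894 to 6754953, minus strand). The gene of the largest subunit, polr1a, did not pass, with levels of -2.48 and -2.49 in progenitors and -2.41 and -2.25 in glia (-0.15 ± 0.07, limma, adjusted p = 0.117). The polr1a levels did not overlap, but the glia arrays lay further apart than the progenitor arrays. The other polr1 subunit shared with RNA polymerase III, polr1c, did not pass either (0.06 ± 0.06), and its arrays overlapped. Nor did polr1f (formerly twistnb), a subunit of the polymerase stalk (0.02 ± 0.04, its other probe -0.05 ± 0.06). The polr1 subunits thus ranged from -0.15 to 0.59, a spread that was not itself tested.

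All 4 snoRNP core proteins among the members were higher with 75th percentile scaling, against 27.5% of all genes. Outside the name rule, the core gene snu13b was higher (1.32) and its paralog snu13a lower (-2.14), as described below. With median scaling nhp2 alone of the 4 passed (0.66), against 18.3% of all genes higher. Then fbl was at 0.08 (limma, adjusted p = 0.263), gar1 at 0.0093 (adjusted p = 0.889) and nop56 at -0.058 (adjusted p = 0.431). These proteins sit on guide RNAs of 2 classes, box C/D, which direct methylation of ribosomal RNA, and box H/ACA, which direct its pseudouridylation. The largest difference was in nhp2 (box H/ACA), at 1.30 and 1.18 in progenitors, against 0.32 and 0.40 in glia. In unscaled intensity this was 11892 and 11068 in progenitors, against 5378 and 5863 in glia, and the scaled difference was 1.84-fold (0.88 ± 0.07, limma, adjusted p = 0.00131, chromosome 21, 20890142 to 20890201, minus strand). The other box H/ACA gene, gar1, was at 1.94 and 1.91 in progenitors and 1.68 and 1.71 in glia (0.23 ± 0.04, limma, adjusted p = 0.0124). Its other probe, which overlaps the first on chromosome 17, gave 0.23 ± 0.07. Fibrillarin (fbl), the methyltransferase of the box C/D particle, was at 2.65 and 2.62 in progenitors and 2.30 and 2.35 in glia (0.30 ± 0.04, limma, adjusted p = 0.00685, chromosome 16, 34087432 to 34087491, minus strand), with its other probe at 0.27 ± 0.05. The box C/D scaffold protein gene nop56 passed narrowly, at 2.29 and 2.30 in progenitors and 2.09 and 2.17 in glia (0.16 ± 0.05, limma, adjusted p = 0.0466). The nop56 call was lost without any 1 of the 4 arrays (0.12 to 0.20), and the gar1 call without glia replicate 1 (0.22) or progenitor replicate 1 (0.22).

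In the small subunit processome, 5 of 10 tested genes were higher, 1 was lower and 4 did not pass, against 27.5% of all genes higher and 40.4% lower. With median scaling imp4 alone was higher and rcl1, nol10, nop14 and wdr43 were lower, against 18.3% and 60.5% of all genes. The largest increase was in imp4, a partner of imp3 in binding the pre-ribosomal RNA, with levels of -0.29 and -0.38 in progenitors, against -0.91 and -0.84 in glia (0.54 ± 0.06, 1.45-fold, limma, adjusted p = 0.00301, chromosome 5, 20676599 to 20676658, plus strand). Next came utp25 (called def in earlier zebrafish work), at -1.08 and -1.17 in progenitors, against -1.50 and -1.49 in glia (0.37 ± 0.05, limma, adjusted p = 0.006). In both genes the 2 progenitor arrays lay above the 2 glia arrays, but the groups did not overlap for 88% of all genes either. Another utp25 probe, mapped to the opposite strand, was not well above background on any array.

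The UTP-A module is known from yeast to link transcription of the precursor to its processing. Of its genes under the name rule, utp4 (0.34 ± 0.06, limma, adjusted p = 0.00953) and utp15 (0.33 ± 0.04, limma, adjusted p = 0.00447) were higher, against 27.5% of all genes. Genes of the module outside that rule are described below. The 3 utp15 probes, which lie next to one another on chromosome 25, gave 0.33 ± 0.04, 0.45 ± 0.04 and 0.56 ± 0.05. Another member of the module, wdr43, did not pass (-0.05 ± 0.04). Its levels were 1.51 and 1.5 in progenitors and 1.57 and 1.55 in glia, and its other probe, which overlaps the first, gave -0.04 ± 0.04. From the neighbouring UTP-B module utp6 did not pass (0.13 ± 0.05, limma, adjusted p = 0.0702). Of the remaining processome genes, utp11 was higher (0.30 ± 0.05), while nop14 (0.04 ± 0.05) and nol10 (-0.01 ± 0.05) did not pass.

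Median scaling put 7 members lower, against 60.5% of all genes, and quantile normalization 2, against 39%. With 75th percentile scaling, where 40.4% of all genes were lower, the only lower member was rcl1, a processome protein related to RNA cyclases. Its levels were 2.52 and 2.5 in progenitors, against 2.78 and 2.83 in glia, with no overlap (-0.30 ± 0.04, limma, adjusted p = 0.00692). Its unscaled intensity was lower too, at 27610 and 27621 in progenitors, against 29552 and 31595 in glia. Spike-in scaling turned its direction (0.80, limma, adjusted p = 0.000139), and normexp background correction ended the call (-0.24, limma, adjusted p = 0.0601).

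Of 4 tested large subunit factors, 2 were higher and 2 did not pass, against 27.5% of all genes higher and 40.4% lower. Of the increases nop16 alone passed with median scaling, against 18.3% of all genes higher. The gene nop16, whose yeast counterpart belongs to large subunit precursors, had the largest difference of all members, 2.25-fold (1.17 ± 0.05, limma, adjusted p = 0.000327, chromosome 2, 29306277 to 29306336, plus strand). Its levels were 0.91 and 0.94 in progenitors, against -0.28 and -0.22 in glia, or 9023 and 9398 in progenitors, against 3547 and 3822 in glia, in unscaled intensity. The further nop16 probe, made from an expressed sequence tag and mapped close by (29306476 to 29306535), was not well above background on any array, so the value rests on 1 probe. The PeBoW complex joins pes, bop1 and wdr12 and is needed for large subunit processing. Of these, wdr12 was higher, at 0.13 and 0.15 in progenitors, against -0.23 and -0.20 in glia (0.36 ± 0.04, limma, adjusted p = 0.00383, chromosome 6, 5749184 to 5749243, minus strand). Pescadillo (pes) did not pass, at 1.11 and 1.1 in progenitors and 1.00 and 1.06 in glia (0.07 ± 0.04, limma, adjusted p = 0.21). No level can be given for bop1, whose only probe was not well above background. The gene nol12, counterpart of a yeast exonuclease of ribosomal RNA, did not pass (0.14 ± 0.05, limma, adjusted p = 0.0706).

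Among the abundant nucleolar proteins, npm1a had the largest increase. Nucleophosmin, its product, is a histone and ribosomal protein chaperone. The probe that stands for npm1a had levels of 2.21 and 2.22 in progenitors, against 1.12 and 1.13 in glia, or 22359 and 22831 in progenitors, against 9314 and 9735 in glia, in unscaled intensity. The difference was 2.14-fold (1.09 ± 0.04, limma, adjusted p = 0.000281, chromosome 10, 12749116 to 12749175, minus strand). All 4 npm1a probes, which lie between 12749116 and 12758380 on that chromosome, were higher in progenitors, by 1.09 ± 0.04, 1.13 ± 0.04, 1.26 ± 0.04 and 1.32 ± 0.05. Nucleostemin (gnl3), a nucleolar GTPase known from stem and progenitor cells, was at -1.65 and -1.44 in progenitors, against -2.06 and -2.03 in glia (0.49 ± 0.09, 1.41-fold, limma, adjusted p = 0.0105). Its progenitor arrays lay further apart than those of npm1a but did not overlap the glia arrays. Nucleolin (ncl), an RNA-binding protein of the nucleolus, did not pass, at 4.44 and 4.33 in progenitors and 4.44 and 4.45 in glia (-0.06 ± 0.06, limma, adjusted p = 0.397). Its 1 probe gave unscaled intensities of 104450 and 98382 in progenitors and 92851 and 97403 in glia.

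**Figure D2:**
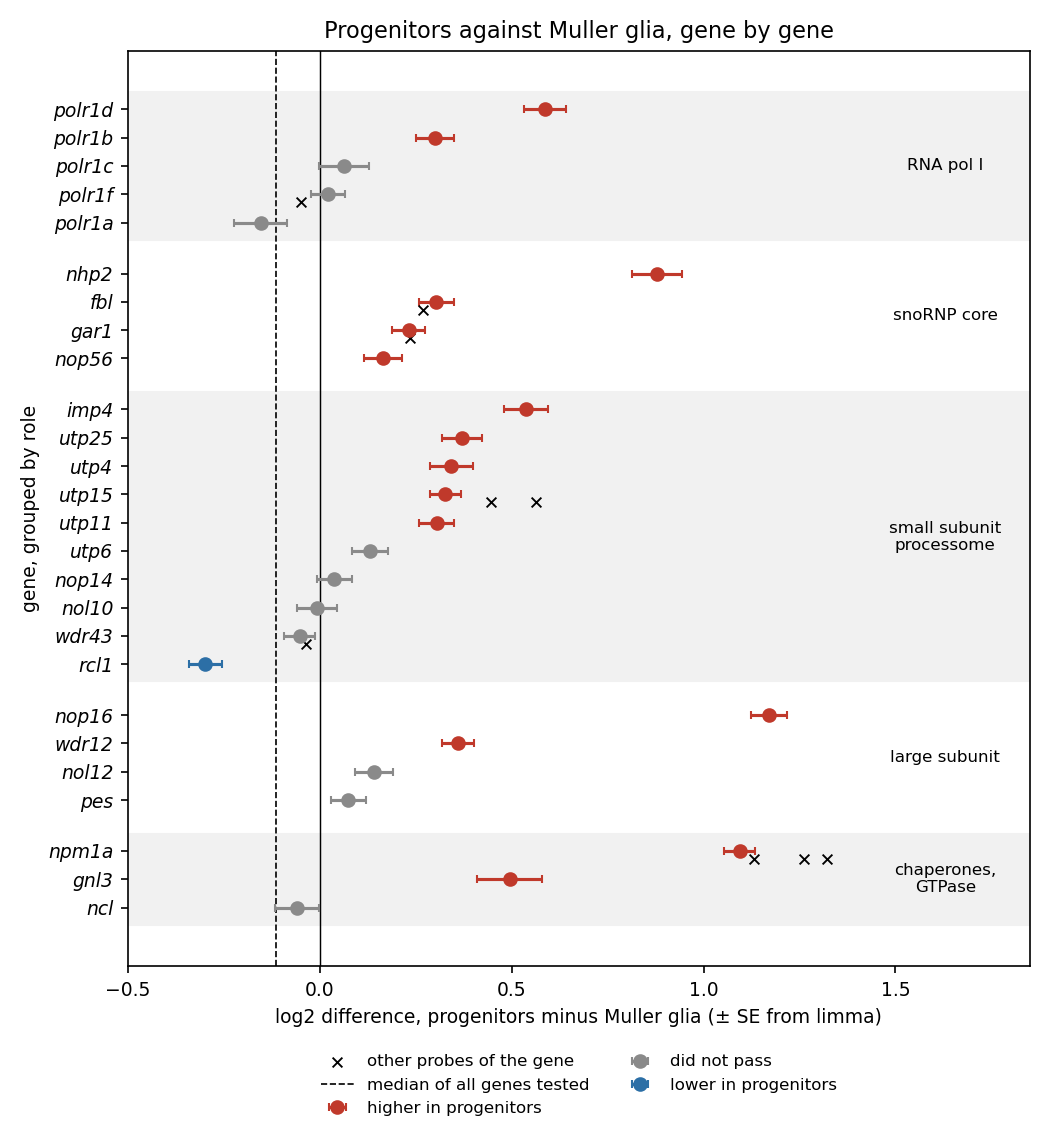
Log2 difference between progenitors and Muller glia for each tested gene, with the SE from limma as bars, grouped by role. Filled circles are the probe that stands for the gene, crosses the gene's other tested probes and the dashed line the median of all genes tested (-0.11). Red circles passed as higher, blue as lower, and grey circles did not pass. The values run from -0.30 (rcl1) to 1.17 (nop16), and most lie right of the dashed line.

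Different probes of a gene gave the same call in all 6 genes with several tested probes (fbl, gar1, npm1a, polr1f, utp15 and wdr43). The probes of gar1 and those of wdr43 overlap, so their agreement says little. The share of agreeing genes among all genes with several probes was not computed. The spread between probes was widest in utp15 (0.24) and npm1a (0.23), wider than the SE of either, and 0.07 or less in the other 4 genes. At the level of probes, 22 of 35 were higher, against 27.1% of all probes, and 1 was lower, against 38.5% of all probes. The SD between replicate arrays had a median of 0.03 in progenitors and 0.02 in glia over the tested probes.

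How many members counted as changed depended on how the arrays were scaled. With each array scaled on its median, 6 members were higher (imp4, gnl3, nhp2, nop16, npm1a and polr1d) and 7 lower (ncl, nol10, nop14, polr1a, polr1f, rcl1 and wdr43), against 18.3% and 60.5% of all genes, with a median difference of 0.04. Scaled on spike-in control spots, whose median signal was 2875 and 2842 on the progenitor arrays, against 5281 and 5736 on the glia arrays, all 26 were higher, against 92.5% of all genes, and 0 lower, against 2.27% (limma, also 0 lower at an unadjusted p below 0.05). Their median difference was then 1.36. The median of all genes moved by -0.22 with the array median and by 1.1 with the spike-ins, and as these scalings move every gene alike, the gap of 0.38 between the members' median and that of all genes is fixed under them. Settings that can change the gap gave 0.29 without a filter on dim probes and 0.47 with normexp. With normexp background correction 8 members were higher and 0 lower (limma, with 1 lower at an unadjusted p below 0.05), against 11.6% and 16.3% of all genes. The higher calls of gar1, gnl3, nop56, polr1b, utp11, utp25 and utp4 were lost there. Quantile normalization gave 17 higher and 2 lower (27.4% and 39% of all genes), an intensity trend 17 and 1 (29.5% and 44%), and the deposited values 14 and 1 (26.4% and 35.4%). Without a filter on dim probes the counts were 14 and 1 (20.2% and 28.9%), with a filter on all arrays 15 and 1 (30.3% and 41%), and with the mean of a gene's probes 15 and 1 (27.3% and 40.1%). With a replicate block they were 14 and 1 (25.4% and 37.2%). Leaving out progenitor replicate 1 gave 13 and 1 (22.8% and 32.9%), progenitor replicate 2 gave 14 and 1 (23.3% and 33.7%), glia replicate 1 gave 13 and 1 (22.9% and 30.1%) and glia replicate 2 gave 14 and 1 (23.1% and 30.9%). Of the 15 higher genes, 5 kept their call under every alternative that used all 4 arrays: imp4, nhp2, nop16, npm1a and polr1d. The share of all higher genes that did so was not computed, and the alternatives share the same arrays.

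**Figure D3:**
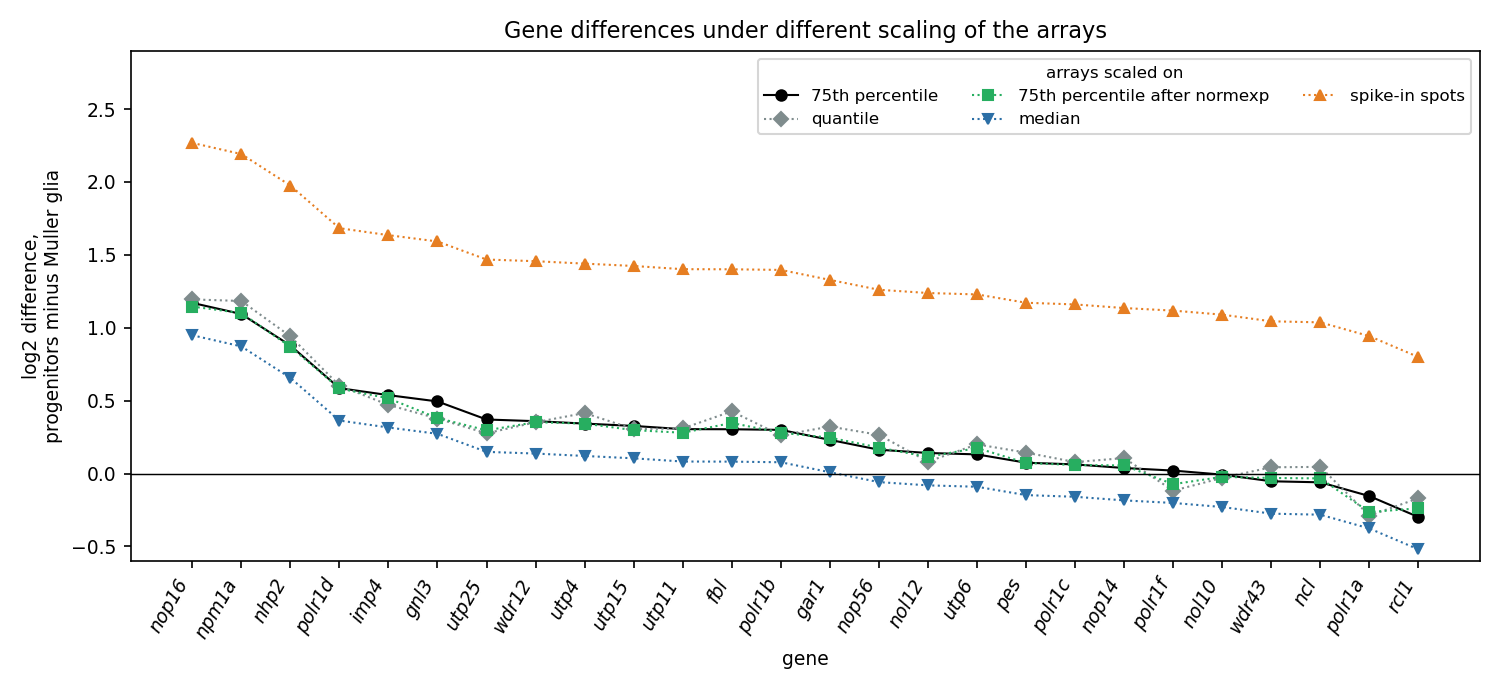
Log2 difference between progenitors and Muller glia of the 26 genes, ordered by their value with 75th percentile scaling (black circles), and the same under 4 other settings. Median scaling (blue) moves every gene down and spike-in scaling (orange) moves every gene up, so that genes near 0 change sign, while nop16, npm1a and nhp2 stay at the high end and rcl1 at the low end except with quantile normalization and normexp, where polr1a is lowest.

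Further ribosome biogenesis genes, outside the name rule, came from a list of known factors. Of 79 such genes on the array 71 were tested, and 40 were higher and 5 lower, against 27.5% and 40.4% of all genes, with a median of 0.18. Median scaling gave 18 higher and 20 lower, against 18.3% and 60.5% of all genes, which turned the balance within the list. Spike-in scaling gave 70 and 1, against 92.5% and 2.27% of all genes, and normexp 19 and 2, against 11.6% and 16.3%. The strongest increase by adjusted p was in snu13b, a box C/D core protein that also belongs to a spliceosomal particle (1.32 ± 0.04, 2.5-fold, limma, adjusted p = 0.000192). Its levels were 0.53 and 0.56 in progenitors, against -0.78 and -0.78 in glia, and its other probes gave 1.39 ± 0.07 and 0.71 ± 0.04. The probe at 0.71 is given the same coordinates as the one at 1.32, so size differed between probes of one site while the direction did not. The paralog snu13a was the largest decrease on the list (-2.14 ± 0.07, limma, adjusted p = 0.00023). Its 1 probe, given no coordinates, stood at -6.01 and -6.09 in progenitors, against -3.84 and -3.98 in glia, opposite to snu13b. These are low levels, as the lowest well above background on the progenitor arrays were -7.77 and -7.27. Signal shared between these paralogs was not tested.

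The next increases by adjusted p were noc2l (1.06 ± 0.05) and surf6 (0.74 ± 0.04), both tied to large subunit maturation, then pwp2h (0.84 ± 0.05), a UTP-B protein, and znhit3 (0.71 ± 0.04), which acts in assembly of box C/D snoRNPs. Values for pwp2h were 0.13 and 0.06 in progenitors, against -0.72 and -0.77 in glia. Other lower genes were ltv1 (-0.43 ± 0.04), which takes part in small subunit maturation, the nucleolar GTPase gene gnl3l (-0.33 ± 0.05), ubtfl (-0.27 ± 0.05), named for its likeness to the RNA polymerase I factor UBTF, and the processome gene wdr46 (-0.17 ± 0.05). The paralogs gnl3 and gnl3l thus passed in opposite directions. The UTP-B partners of utp6 on the list were all higher, against 27.5% of all genes. These were wdr3 (0.58 ± 0.05), wdr36 (0.20 ± 0.04) and tbl3 (0.17 ± 0.05) besides pwp2h. Median scaling moved every gene by -0.22, which outweighs the increases of wdr36 and tbl3 but not those of wdr3 and pwp2h. Of the UTP-A proteins on the list, wdr75 was higher (0.23 ± 0.04, limma, adjusted p = 0.0154), by about the size of that shift. The other, heatr1, did not pass (-0.06 ± 0.05). The partner of imp3 and imp4, mphosph10, did not pass either (0.13 ± 0.04, limma, adjusted p = 0.0556). Of 15 genes on the list with several tested probes, 2 had probes that passed in opposite directions. These were exosc9 (0.18, 0.30 and -0.64) and nifk (0.39 and -0.36), both counted as higher through their brightest probe. Leaving out any 1 array lowered the counts of 40 and 5, and the shares of all genes called higher or lower fell as well.

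**Figure D4:**
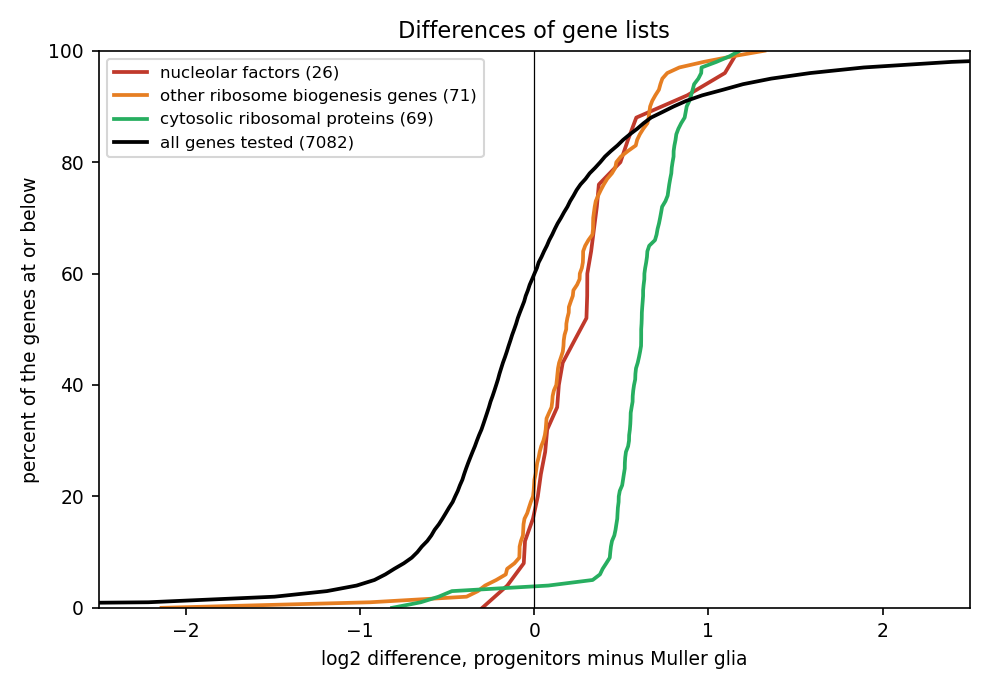
Percent of the genes of each list (vertical axis) at or below a given log2 difference between progenitors and Muller glia (horizontal axis). The curves of the 26 nucleolar factors (red) and of the 71 other ribosome biogenesis genes (orange) run close together, with medians of 0.27 and 0.18, right of all 7082 genes (black, median -0.11) through the middle of the range. The 69 cytosolic ribosomal protein genes (green) have a median of 0.61.

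Markers of other cells differed between the groups in both directions, where 27.5% of all genes were higher and 40.4% lower. Among proliferation markers 7 of 9 were higher and 1 lower. The lower one was mki67 (-0.43), and top2a did not pass (-0.0033), both at low levels. Summed, the linear level of the proliferation markers was 17.8 and 17.4 in progenitors, against 4.61 and 4.55 in glia. Microglia and leukocyte markers were also higher, 8 of 10 with 1 lower, and their sum was 67.9 and 63.7 in progenitors, against 25.3 and 25.0 in glia. All 10 were well above background on every array of both groups. These sums lean on the brightest probes, such as apoc1, and the median difference of the list was 1.76. Sums were lower in progenitors for rod and cone markers (399 and 406, against 663 and 643 in glia) and for erythrocyte markers (34.5 and 35.3, against 71.9 and 71.2 in glia, mostly hbba1). The median differences of those lists were -0.81 and -1.72. Inner retinal neuron markers, 2 of 9 higher and 5 lower, summed to 126 and 128 in progenitors, against 153 and 152 in glia, and Muller glia markers summed to 309 and 314 in progenitors, against 230 and 233 in glia. The part of these other cells in the differences of the nucleolar genes was not tested.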

How the data were processed

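RNA of sorted retinal cells was measured on 4 single-colour Agilent arrays of design 015064, 2 per group. The deposited scanner files give spot intensity, which Feature Extraction 9.5.3.1 corrected for background and spatial trend and gave surrogate values where low, per the file headers. The submitters' processing notes name version 9.1. A deposited value table, also intensity, has medians of 467 and 488 on the progenitor arrays and 356 and 360 on the glia arrays. Each value matches a single spot after background subtraction (100%, tolerance 0.001), so they are linear and neither centred nor scaled between arrays.

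Here the 1417 control spots and the spots marked as outliers were left out, log2 signals were scaled on the 75th percentile of each array, and the 2 spots of a probe averaged. Flags for well above background and saturation are other values of the deposited files. The comparison used limma 3.58.1 under R 4.3.3 (lmFit, then eBayes without a trend) on the 16596 probes kept. Probes were named through the RefSeq accession in the GRCz12tu gene table (7323), a current symbol (620) or an older name (2360), with 1609 left under the file's own name and 9583 unnamed. Coordinates are those of the files, on danRer2. The test was checked on simulated data, but no error rate from that check is given here.

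Every member is accounted for, ordered by role, and up to 5 of the other ribosome biogenesis genes in each direction are named by adjusted p. The further genes of that list, and the members whose unscaled intensity is given, were picked once their values had been seen. The members and lists were chosen with earlier results of these data known. The alternatives are other scalings, background correction, filters on dim probes, averaging of probes, the deposited table, an intensity trend, a replicate block and leaving out each array.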

Additional observations from a re-analysis of the deposited data

How the results depend on the processing

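With median scaling 6 members were higher and 7 lower (median 0.044), and 18 and 20 of the other ribosome biogenesis genes. The shares of all genes were 18.3% and 60.5%, and nop14 turned to -0.18, polr1f to -0.20 and nop56 to -0.058. With spike-in scaling 26 members were higher and 0 lower (limma, also 0 lower at an unadjusted p below 0.05, median 1.36), and 70 and 1 of the other genes. The shares of all genes were 92.5% and 2.27%, and ncl stood at 1.04, nol10 at 1.09, polr1a at 0.94, rcl1 at 0.80 and wdr43 at 1.04. With normexp 8 members were higher and 0 lower (limma, 1 lower at an unadjusted p below 0.05), and 19 and 2 of the other genes. The shares of all genes were 11.6% and 16.3%. Quantile normalization gave 2 lower members, against 39% of all genes, and the deposited values 3 lower other genes, against 35.4%. Without a filter on dim probes the median of the members was 0.20. Leaving out 1 array gave 13 to 14 higher members, 1 lower member (1 to 1), medians of 0.24 to 0.28, and 26 to 31 higher and 3 to 4 lower other genes. The shares of all genes called higher or lower also fell when an array was left out. The replicate numbers are not said to mark shared fish or days, and same-numbered arrays did not deviate together (r = 0.058). With a replicate block 14 members were higher and 1 lower, with nop56 lost (limma, adjusted p = 0.0779), and 34 and 4 of the other genes. The shares of all genes were then 25.4% and 37.2%. The calls are limited by the number of arrays, and 4 member probes by signal at background.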

Other observations

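Values of other genes follow, which were chosen after they were seen and are not tested as lists. Of 69 cytosolic ribosomal protein genes, collected by the start of their symbol, progenitors had 66 at higher and 3 at lower levels (rpl5, rpl10 and rps19), and the median was 0.61, against 27.5% and 40.4% of all genes. Polymerase subunit genes were also collected by the start of their symbol, which does not separate subunits that polymerases share. Of 8 tested polr3 genes (RNA polymerase III) 2 rose, 1 fell and 5 did not pass, with a median of -0.07. Of 7 polr2 genes (RNA polymerase II) 1 was higher and 6 did not pass, with a median of 0.12. Of all genes, 67.9% passed in either direction. The Myc family comprises transcription factors known to act on ribosome biogenesis genes. Any part of this family in the differences of the nucleolar genes was not tested. Of its 5 genes looked at, 5 were higher with 75th percentile scaling, against 27.5% of all genes. The differences were 3.32 in mych, 1.20 in mycb, 0.83 in mycla, 0.45 in myca and 0.16 in mycn. For mycn the adjusted p was 0.0338 (limma). Median scaling moved every gene by -0.22, which outweighs the increase of mycn but not those of the other Myc genes named. Calls of the Myc genes under that scaling are not given here. Levels of mych were -2.51 and -2.33 in progenitors, against -5.75 and -5.73 in glia (3.32 ± 0.08). Levels of mycb were 2.41 and 2.38 in progenitors, against 1.14 and 1.25 in glia (1.20 ± 0.06).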
